A study of Mus musculus with 6 samples.

Results

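Gly-GCC tRNA carries glycine to the ribosome, and its fragments were followed here in young and aged mouse brain. A fragment (a tRNA-derived small RNA with its own ID) was taken as a Gly-GCC fragment when every parent tRNA listed for it was a Gly-GCC tRNA and at least 1 parent was a mature tRNA rather than a precursor. This rule kept 24 of the 591 fragment IDs in the table, and no ID was listed under Gly-GCC precursors alone (0 IDs). Small RNA was sequenced from total brain RNA of C57BL/6 mice, an inbred laboratory strain, at 3 months of age (3 libraries) and at 22 months (3 libraries), to compare tRNA fragments between the ages. The labels name no genotype change or treatment at either age. Nothing in them says that each replicate is its own animal, and the spread behind a p-value may therefore be technical.

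Transfer RNAs are cut into fragments by nucleases, and cuts in the anticodon loop by enzymes such as angiogenin leave a longer 5′ fragment and a longer 3′ fragment. Shorter fragments end in the D arm, before the anticodon, or begin in the T arm. Fragments from the 5′ side of Gly-GCC tRNA are among the best-known tRNA fragments of mammalian cells, sperm and body fluids, and cleavage of tRNA rises under cellular stress. In the brain, whole-tissue RNA mixes neurons, glia and blood vessels, so fewer cells of a type and less RNA per cell cannot be told apart. The table lists tRNA fragments alone, and the tissue label could not be checked against marker genes.

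The members' parents are 15 mature Gly-GCC gene names with 6 distinct sequences, and 7 precursor names. The sequences are shown because the few bases that differ between them decide which fragments can be told apart. In the first line, capitals mark the stretch that the parent lists require in the Gly-GCC-2/3/4 fragments described next. In the other lines, capitals mark bases that differ from Gly-GCC-2-1.
Gly-GCC-2-1: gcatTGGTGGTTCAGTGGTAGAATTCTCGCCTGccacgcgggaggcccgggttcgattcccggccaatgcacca
Gly-GCC-1-1: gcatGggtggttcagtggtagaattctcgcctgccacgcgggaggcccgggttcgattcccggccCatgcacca
Gly-GCC-5-1: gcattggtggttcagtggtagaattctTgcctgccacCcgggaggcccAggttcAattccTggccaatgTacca
Gly-GCC-6-1: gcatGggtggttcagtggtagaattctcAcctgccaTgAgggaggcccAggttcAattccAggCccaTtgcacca
Gly-CCC-5-1: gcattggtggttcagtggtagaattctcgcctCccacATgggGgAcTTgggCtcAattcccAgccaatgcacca
The sequence of Gly-GCC-2-1 is shared by 8 gene names and that of Gly-GCC-1-1 by 3. With positions counted from 1 at the 5′ end and the Gly-GCC-2-1 base given first, Gly-GCC-1-1 differs by T5G and A66C, Gly-GCC-3-1 by C54T and Gly-GCC-4-1 by A56G. Gly-GCC-5-1 differs at 6 positions, the first being C28T. Gly-GCC-6-1 is 75 nt long against 74 nt, and aligned to Gly-GCC-2-1 with 8 substitutions and 1 inserted base. Gly-CCC-5-1, a glycine tRNA with another anticodon, has the same first 32 bases as Gly-GCC-2-1, and its first difference is G33C, the first base of the anticodon (positions 33 to 35). RefSeq's annotation of GRCm38.p6 lists 14 Gly-GCC tRNA genes, each 71 nt long, before the CCA end is added. Of these, 5 lie on chromosome 1, 3 on chromosome 8, 2 on chromosome 13 and 1 each on chromosomes 2, 3, 4 and 11. The group of 4 on chromosome 1 spans positions 171044985 to 171081946. The table's gene names are not paired with these genes in the sources used here, so no fragment was placed at a locus.

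The members fell into 4 groups with identical parent lists. The Gly-GCC-2/3/4 group has 3 IDs, each listed under the same 14 parents, 10 mature and 4 precursor names. The Gly-GCC-1 group has 4 IDs under 6 parents, 3 mature and 3 precursor names. A single mature tRNA, Gly-GCC-5-1, is the parent of 10 IDs, and another, Gly-GCC-6-1, the parent of 7. The IDs of a group come from the same tRNAs and are not independent observations.

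The table gives the sequence of the parents and not of the fragments, but the parent lists limit where a fragment can lie. For each list, stretches of 15 to 50 nt were sought that occur exactly in every listed parent and in no other parent name of the table. Such a stretch exists for 502 of the 591 IDs (84.9%). None exists for 2 of the 8 IDs shared between Gly-CCC and Gly-GCC, those listed under 12 parents. For the Gly-GCC-2/3/4 group each such stretch starts at positions 1 to 5, ends at positions 33 to 53 and holds positions 5 to 33. By this reading the 3 IDs are fragments of the 5′ side that reach the anticodon or beyond. The closest comparison is a set of 5 IDs listed under the same 16 Gly-GCC and Gly-CCC parents. Their stretches start at positions 1 to 5 and end at positions 28 to 32, before the anticodon. For Gly-GCC-1 the shortest stretches lie at the 5′ side (positions 5 to 29) or at the 3′ side (between positions 52 and 71), so those 4 IDs could not be placed. None of them ends past position 71, since the precursor parents lack the added CCA. Stretches for Gly-GCC-5-1 and Gly-GCC-6-1 cover nearly the whole tRNA and place no ID. The placement rests on exact matching and on complete parent lists, and neither is stated in the sources used here.

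**Figure D1:**
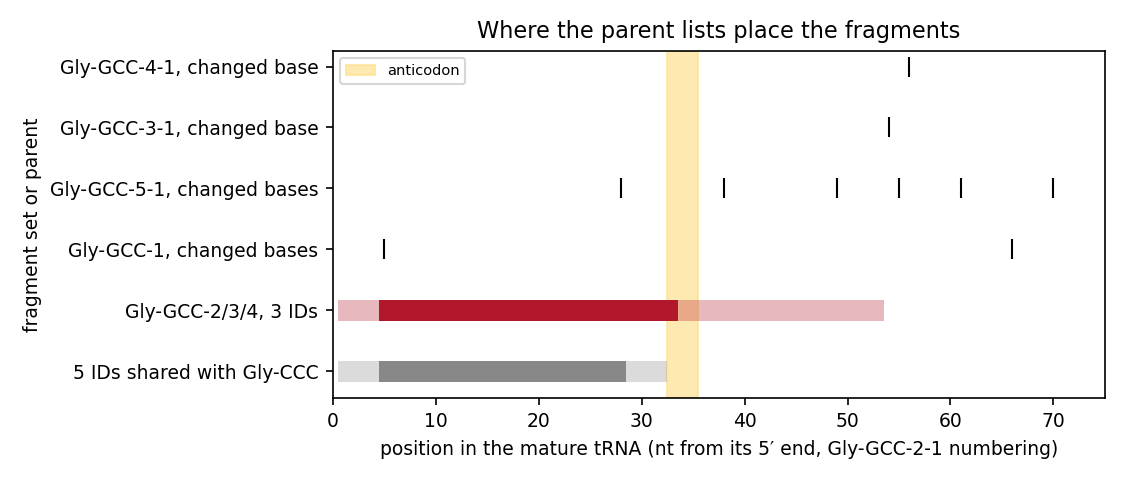
Position in the mature tRNA, in nt from its 5′ end, is on the horizontal axis, with the anticodon (positions 33 to 35) shaded. Dark bars show the positions that every allowed stretch holds and pale bars the outermost limits, for the Gly-GCC-2/3/4 fragments (5 to 33) and the 5 IDs shared with Gly-CCC (5 to 28), and ticks mark bases that differ from Gly-GCC-2-1.

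Listed tags summed to between 44156 and 57425 per library at 3 months and between 71121 and 96130 at 22 months. Each library lists values down to a smallest count (11, 8 and 9 at 3 months; 13, 17 and 17 at 22 months in replicates 1, 2 and 3) and gives the rest as 0, so a 0 is a level below that minimum and not a measured absence. Levels are given as a share of all listed tags in the library. These shares depend on what the other fragments do, and 95% exact binomial intervals cover counting error only. The library of 22 month replicate 3 stood apart from the others of its age: Spearman correlations across the 591 IDs were 0.749 and 0.824 with replicates 1 and 2, against 0.908 between those 2. Results that rest on it are given with and without it.

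Gly-GCC fragments together made up 3.62%, 2.63% and 2.02% of listed tags in 3 month replicates 1, 2 and 3, and 3.54%, 4.36% and 9.34% in 22 month replicates 1, 2 and 3. The ages overlapped, since 22 month replicate 1 lay below 3 month replicate 1 (95% intervals 3.41% to 3.68% and 3.47% to 3.78%). The mean of 3 libraries was 2.76% ± 0.81 (SD) in young and 5.75% ± 3.14 (SD) in aged brain, a ratio of 2.09. Without 22 month replicate 3 the ratio was 1.43. The sum is described here without a test.

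**Figure D2:**
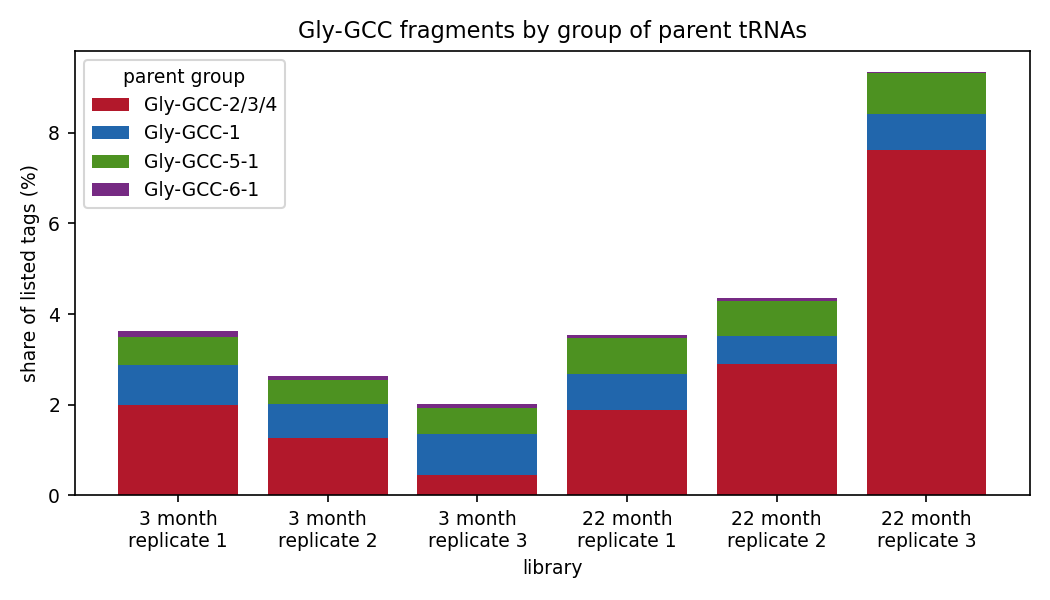
Stacked bars give the share of listed tags (%) in each of the 6 libraries, divided by parent group. Totals run from 2.02% to 3.62% at 3 months and from 3.54% to 9.34% at 22 months, and the Gly-GCC-2/3/4 segment reaches 7.62% in 22 month replicate 3.

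Across all IDs tested, edgeR's quasi-likelihood test with Benjamini-Hochberg adjustment over 439 IDs called 29 different between the ages (6.61%), 4.78% higher and 1.82% lower at 22 months. Of the 24 Gly-GCC IDs, 19 passed the filter on low counts and 5 were not tested. None of the 19 was called in either direction (0 higher, 0 lower), and the lowest adjusted p was 0.0617. An unadjusted p under 0.05 (edgeR) was reached by 4 of the 19, or 21.1%, against 25.5% of all tested IDs. All 4 were higher at 22 months, a direction in which 15.7% of all tested IDs reached that p. The DESeq2 test called 1 member, AS-tDR-007999 (11.0% called over the table, 7.08% higher and 3.96% lower at 22 months), and limma-voom called 0 (10.5% called over the table, 5.92% higher and 4.56% lower). The log2 difference, 22 months minus 3 months, was positive for 13 members and negative for 6, where 42.6% of all tested IDs were positive. Its median was 0.39 over the 19 members and -0.16 over all tested IDs. Scaled by library size alone these medians were 0.17 and -0.34, so both moved by about the same amount.

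Without a test, the share of listed tags in every 22 month library exceeded that in every 3 month library for 6 of the 24 members, against 10.7% of all IDs. The reverse was seen for 0 members, against 20.6% of all IDs. For the other 18 members the ages overlapped. One of the 6 was in the Gly-GCC-2/3/4 group and 5 in the Gly-GCC-5-1 group.

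**Figure D3:**
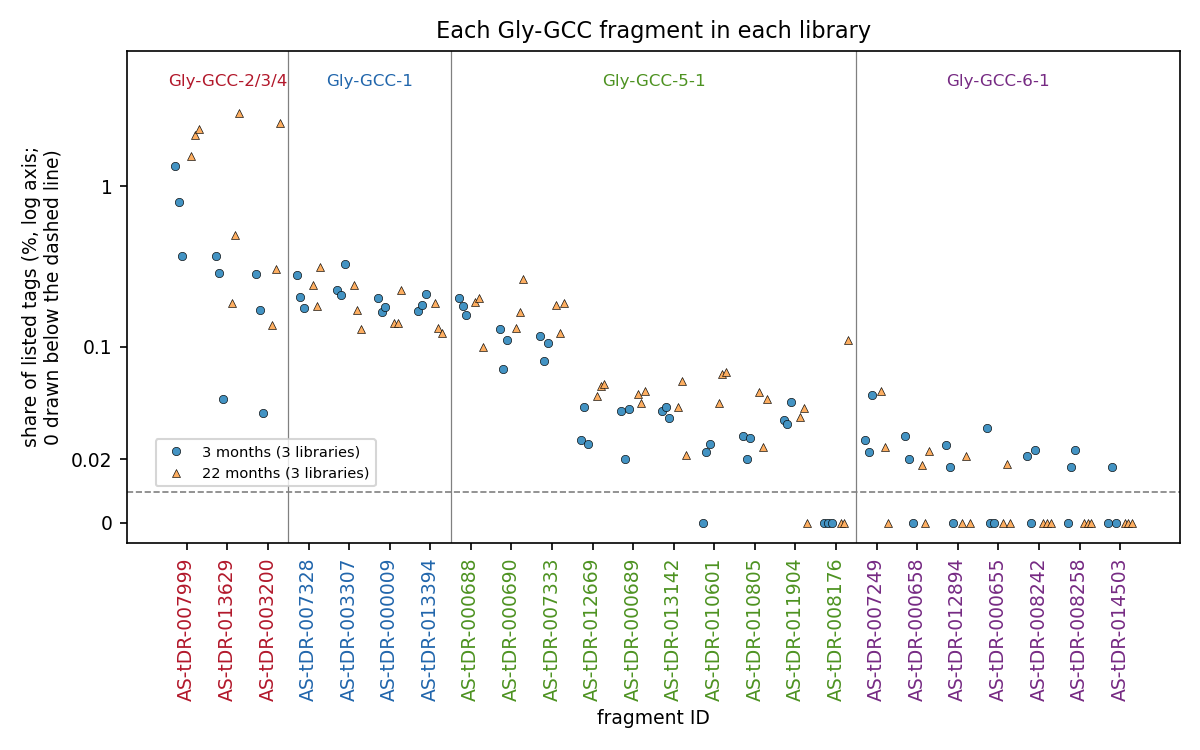
The share of listed tags (%, log axis) of each of the 24 Gly-GCC fragments is drawn for 3 libraries of 3 months (circles) and 3 of 22 months (triangles), with values of 0 below the dashed line. AS-tDR-007999 is the highest in each library but 22 month replicate 3, where AS-tDR-013629 and AS-tDR-003200 lie at 2.88% and 2.47%, and the Gly-GCC-6-1 fragments lie near the listing minimum.

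The 5′ fragments of Gly-GCC-2/3/4, whose required stretch of positions 5 to 33 is in capitals in the sequences above, held most of the Gly-GCC tags in 4 of the 6 libraries. They made up 55.2%, 48.0% and 22.6% of Gly-GCC tags in 3 month replicates 1, 2 and 3 and 53.0%, 66.2% and 81.6% in those of 22 months. Of all listed tags they took 2.00%, 1.26% and 0.455% at 3 months and 1.88%, 2.89% and 7.62% at 22 months. The groups overlapped in replicate 1 of each age. The mean was 1.24% ± 0.77 and 4.13% ± 3.07 (SD, n = 3 each), a ratio of 3.33, which became 1.92 without 22 month replicate 3.

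AS-tDR-007999 was the most abundant Gly-GCC fragment, with 773, 363 and 163 tags in 3 month replicates 1, 2 and 3 and 1104, 2009 and 1923 in those of 22 months. Its share was 1.35%, 0.804% and 0.369% at 3 months and 1.55%, 2.09% and 2.27% at 22 months. Every 22 month library lay above every 3 month library, with 3 month replicate 1 close below 22 month replicate 1. The log2 difference was 1.48 (SE 0.51) and did not pass edgeR's quasi-likelihood test (adjusted p = 0.121). With one library left out it lay between 1.12 and 1.97, with adjusted p between 0.102 and 0.332 (edgeR). The DESeq2 test gave 1.51 and an adjusted p of 0.0455.

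AS-tDR-013629 had 211, 130 and 21 tags at 3 months and 133, 476 and 2443 at 22 months in replicates 1, 2 and 3. As shares these were 0.367%, 0.288% and 0.0476%, then 0.187%, 0.495% and 2.88%. One library, 22 month replicate 3, was far above the rest, and 22 month replicate 1 lay below 3 month replicates 1 and 2. The log2 difference of 2.64 (SE 1.24; edgeR adjusted p = 0.24) became 0.86 without 22 month replicate 3 (edgeR adjusted p = 0.636).

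AS-tDR-003200 followed the same course, with 163, 77 and 17 tags at 3 months and 97, 292 and 2098 at 22 months. Its shares were 0.284%, 0.171% and 0.0385%, then 0.136%, 0.304% and 2.47%. The ages again overlapped. The log2 difference of 2.87 (SE 1.30; edgeR adjusted p = 0.229), the largest among the tested members, was 0.72 without 22 month replicate 3 (edgeR adjusted p = 0.676).

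The counts of these 2 fragments stayed near a fixed proportion to each other. The ratio of AS-tDR-013629 to AS-tDR-003200 was 1.29, 1.69 and 1.24 in 3 month replicates 1, 2 and 3 and 1.37, 1.63 and 1.16 in those of 22 months. Their ratio to AS-tDR-007999 did not stay fixed, although the 3 IDs have the same parents. AS-tDR-013629 ran at 0.273, 0.358 and 0.129 of AS-tDR-007999 at 3 months and at 0.12 and 0.237 in 22 month replicates 1 and 2, but at 1.27 in 22 month replicate 3. The pair made up 57.3% of Gly-GCC tags in that library and between 4.27% and 18.3% in the other 5. With the pair left out, which was chosen after its values were seen, Gly-GCC fragments took 2.97%, 2.17% and 1.93% of listed tags at 3 months and 3.22%, 3.56% and 3.99% at 22 months. The ages then no longer overlapped, and the ratio of means was 1.52.

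The Gly-GCC-1 fragments had overlapping levels at the 2 ages. Their sum was 0.876%, 0.760% and 0.890% of listed tags in 3 month replicates 1, 2 and 3 and 0.813%, 0.622% and 0.789% in those of 22 months. The ages overlapped, and the ratio of means was 0.88. The log2 differences of the 4 IDs ran from -0.28 to 0.39, and their edgeR adjusted p from 0.478 to 0.763. These parents differ from Gly-GCC-2-1 at 2 positions, T5G and A66C, which pair with each other in the acceptor stem.

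AS-tDR-007328, the most abundant of them, had 162, 92 and 77 tags at 3 months and 172, 172 and 265 at 22 months. Its share was 0.282%, 0.204% and 0.174%, then 0.242%, 0.179% and 0.312%, with the ages interleaved (log2 difference 0.39, SE 0.30; edgeR adjusted p = 0.478). AS-tDR-003307 had 129, 95 and 144 tags at 3 months and 173, 164 and 109 at 22 months. In shares this was 0.225%, 0.210% and 0.326%, then 0.243%, 0.171% and 0.129%, also overlapping (log2 difference -0.28, SE 0.25; edgeR adjusted p = 0.543). Its difference is among the 3 most negative of the tested members. AS-tDR-000009 and AS-tDR-013394 had log2 differences of 0.15 and -0.14.

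**Figure D4:**
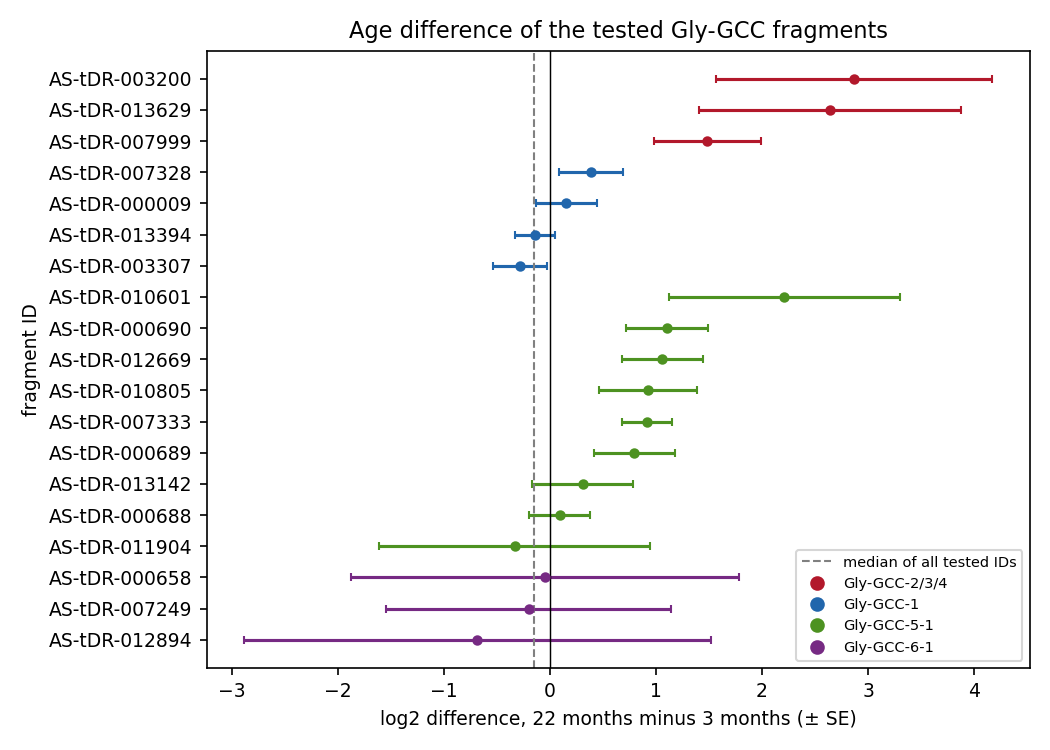
Points give the log2 difference (22 months minus 3 months) of the 19 tested Gly-GCC fragments, with bars of ± 1 SE, coloured by parent group, and the dashed line the median of all tested IDs (-0.16). The Gly-GCC-2/3/4 points (1.48 to 2.87) lie to the right with wide errors, the Gly-GCC-1 points lie near 0, and the Gly-GCC-6-1 errors span 0.

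The 10 fragments of Gly-GCC-5-1 were of low abundance, and their sum was higher at 22 months. It was 0.616%, 0.514% and 0.575% of listed tags in 3 month replicates 1, 2 and 3 and 0.780%, 0.786% and 0.911% in those of 22 months. The ages did not overlap, and the mean went from 0.569% ± 0.052 to 0.826% ± 0.074 (SD, n = 3 each), a ratio of 1.45. With one library left out the ratio lay between 1.38 and 1.52. Of the 9 IDs tested, 8 had a positive log2 difference, against 42.6% of all tested IDs, and the median was 0.91. The test called 0 of the 9, against 6.61% of all tested IDs. The parent Gly-GCC-5-1 carries C28T and G38C, so its anticodon-arm fragments can be told from those of the other Gly-GCC tRNAs.

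AS-tDR-007333 came nearest to the threshold among the Gly-GCC fragments. It had 67, 37 and 47 tags at 3 months and 130, 117 and 159 at 22 months, or 0.117%, 0.0820% and 0.106%, then 0.183%, 0.122% and 0.187%. The ages did not overlap, by a narrow margin between 3 month replicate 1 and 22 month replicate 2. The log2 difference was 0.91 (SE 0.24; edgeR adjusted p = 0.0617). Fitted over the 290 IDs above 0 in all 6 libraries, where 22.4% were called (13.1% higher and 9.31% lower at 22 months), the adjusted p was 0.0398 (edgeR).

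AS-tDR-000690 had 74, 33 and 49 tags at 3 months and 93, 159 and 224 at 22 months (log2 difference 1.11, SE 0.39; edgeR adjusted p = 0.128). Its share was 0.129%, 0.0731% and 0.111%, then 0.131%, 0.165% and 0.264%, so 3 month replicate 1 and 22 month replicate 1 nearly met. AS-tDR-000688, the most abundant Gly-GCC-5-1 fragment, had 116, 81 and 70 tags at 3 months and 136, 195 and 85 at 22 months. Its share was lowest in 22 month replicate 3 (0.1%) and between 0.158% and 0.203% elsewhere (log2 difference 0.09, SE 0.29; edgeR adjusted p = 0.867). The ratio of AS-tDR-000690 to AS-tDR-000688, a pair picked after its values were seen, was 0.638, 0.407 and 0.700 at 3 months and 0.684, 0.815 and 2.64 at 22 months. As with AS-tDR-013629 against AS-tDR-007999, the ratio between fragments with the same parent list was highest in 22 month replicate 3.

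AS-tDR-010601 had the third largest log2 difference among the tested members, 2.21 (SE 1.09; edgeR adjusted p = 0.265). Its tags were 0, 10 and 11 at 3 months, at or near the listing minimum, and 32, 65 and 59 at 22 months. With each 0 replaced by a value 1 below the smallest listed count, its log2 difference was 1.71 (edgeR adjusted p = 0.0395; 8.46% called over the table, 4.74% higher and 3.72% lower). The 0 of 3 month replicate 1 then became 10, beside the measured 10 and 11. That filled-in value narrowed the 3 month spread, so no conclusion is drawn from this p. In the main analysis the ID met the filter on low counts only with its 22 month libraries. AS-tDR-012669 and AS-tDR-000689 were also higher in each 22 month library than in each 3 month library, by 1.06 and 0.80 on the log2 scale (adjusted p from edgeR 0.14 and 0.252). AS-tDR-010805 and AS-tDR-013142 overlapped between the ages, with 0.92 and 0.31.

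Some Gly-GCC-5-1 fragments were missing from, or seen in, a single library. AS-tDR-011904 had 20, 15 and 20 tags at 3 months and 26, 40 and 0 at 22 months. Its log2 difference of -0.33 (SE 1.28; edgeR adjusted p = 0.882) became 0.32 without 22 month replicate 3 (edgeR adjusted p = 0.618). AS-tDR-008176 was listed in 22 month replicate 3 alone, with 93 tags, and was not tested. Both are cases where the library that stood apart decides the direction.

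The 7 fragments of Gly-GCC-6-1 lay near the listing minimum, with at most 38 tags in any library, and 4 of them were not tested. Their sum was 0.131%, 0.0953% and 0.0951% of listed tags at 3 months and 0.0717%, 0.0635% and 0.0224% at 22 months. Every 22 month library lay below every 3 month library, a ratio of means of 0.491. The sum counts each value under the minimum as 0. AS-tDR-007249, the most abundant, had 15, 10 and 22 tags at 3 months and 38, 23 and 0 at 22 months.

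AS-tDR-012894 had the most negative log2 difference among the tested members, -0.68 (SE 2.20; edgeR adjusted p = 0.867). Its tags were 14, 8 and 0 at 3 months and 0, 20 and 0 at 22 months, and with each 0 replaced by a value 1 below the smallest listed count the log2 difference was 0.10. Single libraries decided its size: the log2 difference was -6.03 without 22 month replicate 2, which left 22 month libraries where it is listed at 0, and -0.02 without 22 month replicate 1. Leaving out 3 month replicate 1, 2 or 3 gave -0.08, -0.38 and -1.27 in that order, and leaving out 22 month replicate 3 gave -0.03. AS-tDR-008242, AS-tDR-008258 and AS-tDR-014503 were listed at 0 in all 3 libraries at 22 months and had between 8 and 12 tags where listed at 3 months. Of the single Gly-GCC-6-1 fragments, 3 were tested and 0 passed (edgeR adjusted p from 0.867 to 0.983), against 6.61% of all tested IDs.

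Other glycine fragments gave the frame for these values. Of 44 other glycine IDs, 32 were tested and 0 were called in either direction (edgeR, lowest adjusted p = 0.0692; 3, or 9.38%, at an unadjusted p under 0.05, and 0 by the DESeq2 test). Over all tested IDs these shares were 6.61% called and 25.5% at an unadjusted p under 0.05 (edgeR). Without a test, shares in every 22 month library lay above every 3 month library for 3 of the 44 (6.82%) and below for 5. Over all IDs 10.7% lay above and 20.6% below. Median log2 differences were 0.22 over 13 Gly-CCC IDs, 0.47 over the 8 IDs shared between Gly-CCC and Gly-GCC, and -0.45 over 8 Gly-TCC IDs. A single Gly-ACC ID was tested, with a log2 difference of -0.28. Of 9 IDs of Gly-CCC precursors alone, 2 were tested, with log2 differences of 1.13 and 2.03 (edgeR adjusted p of 0.478 or more). The 9 together took 0.0662%, 0.0222% and 0% of listed tags at 3 months and 0.146%, 0.137% and 0.375% at 22 months, so the ages did not overlap. The 5 shared IDs, placed by their parent lists before the anticodon, took 16.1%, 13.1% and 17.0% of listed tags at 3 months. At 22 months they took 17.6%, 21.5% and 18.4%. They were thus far more abundant than the Gly-GCC-2/3/4 fragments, which the same reading places as reaching the anticodon.

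The 5′ fragments that this reading places as reaching the anticodon were also set against those it places before it. Tags of Gly-GCC-2/3/4 divided by those of the 5 shared IDs gave 0.124, 0.0961 and 0.0267 at 3 months and 0.107, 0.134 and 0.415 at 22 months. The ages overlapped, with 22 month replicate 3 the highest and 3 month replicate 3 the lowest. For AS-tDR-007999 alone the proportion was 0.0836, 0.0612 and 0.0217 at 3 months and 0.0883, 0.0972 and 0.123 at 22 months. The ages did not overlap, but only by a narrow margin between replicate 1 of each age. Because the shared IDs hold fragments of Gly-CCC tRNA as well, this is not a ratio of products of 1 tRNA.

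Against Gly-CCC fragments, which come from another isoacceptor, Gly-GCC tags stood at ratios of 2.32, 1.55 and 1.34 at 3 months and 1.93, 1.69 and 6.50 at 22 months. The first 2 of the 22 month values fell within the 3 month range. The mean ratio at 22 months was 1.94 times that at 3 months, and 1.04 times without 22 month replicate 3. No difference between these isoacceptors in their change with age was tested.

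The anticodon sums with the pattern most like that of Gly-GCC over the 6 libraries were Glu-CTC, Tyr-GTA and His-GTG. Likeness was the root mean square difference of log2 shares centred per anticodon, which was 0.50, 0.52 and 0.54 among 35 anticodons compared. The 3 values are close together. Glu-CTC fragments took 6.49%, 5.29% and 5.61% of listed tags at 3 months and 6.78%, 8.79% and 8.24% at 22 months. Its 22 month libraries were all above those of 3 months, replicate 1 narrowly. Tyr-GTA fragments took 2.19%, 2.24% and 2.12% at 3 months and 2.01%, 1.70% and 3.85% at 22 months. His-GTG fragments took 2.47%, 1.97% and 2.42%, then 2.35%, 2.13% and 3.36%. In both, as in Gly-GCC, 22 month replicate 3 was the highest library. For Tyr-GTA and His-GTG, 22 month replicates 1 and 2 lay within or below the 3 month range. For Gly-GCC, 22 month replicate 2 (4.36%) lay above the 3 month range (2.02% to 3.62%).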

How the data were processed

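The authors deposited whole-number counts of tags for each fragment ID from 6 small RNA libraries. The submitters' processing notes name FastQC, cutadapt, Novoalign and mm10, with no versions. How tags were counted, and why low values are missing, is not given in the sources used here. Although the table title calls it normalized, totals differ between libraries, and values were used as raw counts. Columns named Age and WT were read as 22 and 3 months.

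The table's 3257 lines repeat each ID's counts for every parent, so each of 591 IDs entered once. edgeR 4.0.16 (R 4.3.3; filterByExpr with a minimum count of 10, TMM, quasi-likelihood test, Benjamini-Hochberg adjustment over 439 IDs, threshold 0.05) compared the ages. It was also run on simulated counts drawn without a listing minimum, and that outcome is not used here. Standard errors (SE) were derived from the log2 difference and its F statistic. DESeq2 1.42.0 and limma-voom (limma 3.58.1) were alternatives, with other scalings, filters and left-out libraries. No pair of libraries within an age looked like repeats of a single library (chi-square over its degrees of freedom was 6.60 or more).

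IDs given in full were, by rule, the 5 most abundant members, those past the threshold and the 3 largest log2 differences each way. Others, AS-tDR-007333, AS-tDR-000690 and AS-tDR-000688 among them, were chosen after their values were seen. Members, lists and tests were chosen with earlier results of these data known.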

Additional observations from a re-analysis of the deposited data

How the results depend on the processing

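Of 24 Gly-GCC IDs, 19 were tested in the main edgeR analysis. There, and in each analysis not named next, 0 passed. The exceptions were 1 by the DESeq2 test (AS-tDR-007999) and 1 of 14 over IDs above 0 in all 6 libraries (AS-tDR-007333). Another 1 passed with each 0 replaced by 1 less than the library's smallest count (AS-tDR-010601), where the filled-in value narrowed its 3 month spread. The shares called over the table were 11.0%, 22.4% and 8.46% in that order. Of the other glycine IDs, 2 passed over IDs above 0 in all 6 libraries, where 22.4% of all IDs tested were called. That check was added after seeing the data, and 0 passed in the main analysis. Among all IDs, 29 of the 439 tested passed (6.61%). The number was 44 with DESeq2 size factors, 65 of 290 over IDs above 0 in all 6 libraries and 53 of 480 by the DESeq2 test. It was 46 of 439 by limma-voom and 50 of 591 with zeros replaced. It was 0 when scaled by library size alone, 0 when unfiltered, and between 0 and 14 with one library left out. The calls over the table are thus unstable. With a replicate block 0 IDs passed and the members' median was 0.36. Same-numbered libraries had correlations of -0.46, 0.04 and -0.34 in their deviations from the age means. The 3 month replicates 1 and 3 correlated best with 22 month replicates 3 and 1. Deviations within an age depend on each other, so these correlations cannot decide whether same-numbered libraries were paired.

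The members' median log2 difference stayed positive. It was 0.84 over the 14 members above 0 in all 6 libraries, and between 0.23 and 0.58 with one library left out. The summed share ratio of 2.09 was 1.31 with the IDs shared with Gly-CCC added, and ran from 1.43 to 2.49 when each library was left out in turn. The ratio against Gly-CCC lay between 1.04 and 2.43 in the same way, 1.04 being without 22 month replicate 3. Of 109 values of 8 named members under alternatives, 2 changed sign, AS-tDR-011904 (-1.0 to 0.32 with one library left out, 0.32 without 22 month replicate 3) and AS-tDR-012894 (0.10 with zeros replaced). The cause was not tested. The alternative of adding IDs of Gly-GCC precursors alone had no members. Values near the listing minimum limit what these libraries can show for low fragments.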
